A study of Homo sapiens with 42 samples.

Results

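TMD8 is an established human lymphoma cell line (diffuse large B-cell lymphoma of the ABC type, named for its likeness to activated B cells). It was infected with a lentivirus carrying MALT1 hairpin 2 and compared with TMD8 infected with a non-targeting hairpin. These are 6 of the 42 libraries of the series, 3 in each group, chosen by their titles. The series also holds OCI-Ly3, a second line of the same lymphoma type, a further MALT1 hairpin (hairpin 1), and both lines treated with the covalent MALT1 inhibitor compound 3 at 100 nM or with its solvent DMSO for 8 h or 24 h. Every group has 3 libraries. In the knockdown all cells, controls included, had been infected with a lentivirus carrying a short hairpin RNA. The labels give neither the hairpin sequences nor the time after infection, and nothing in them says that replicates are separate cultures. The p-values therefore measure the spread between these libraries, which may be technical.

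MALT1 is a protease and scaffold that works in a protein complex below the B cell receptor. It passes the receptor's signal on to the transcription factor NF-κB, and its protease cuts several proteins that restrain that signal or destabilise messenger RNA. Lymphomas of this type often depend on the pathway. A short hairpin RNA lowers a protein by degrading its transcript, so it removes the scaffold as well as the protease, whereas a covalent inhibitor blocks the protease.

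Each library is a list of 23250 rows, one for each gene model, with the level in CPM, the read count scaled to the size of the library. The files number the rows and do not pair the numbers with gene names. No row is named here, so neither the level of MALT1, which would check the knockdown, nor any pathway or cell type marker is reported. Results are given as numbers of rows, sizes of change and levels, and in full for the 2 rows that rose most and the 2 that fell most among called rows whose groups do not overlap and whose higher group has 10 CPM or more. RNA came from whole cultures, so a changed level per cell and a changed share of cells cannot be told apart.

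The 6 libraries held 16.0 to 18.4 M reads in the rows, and a level of 1 CPM stood for 20.8 to 23.7 reads. Reads in the rows made up 74.99%, 74.48% and 75.08% of all reads in the controls and 77.59%, 76.83% and 76.27% with hairpin 2. Every hairpin 2 library was above every control. The means were 74.9% ± 0.32 and 76.9% ± 0.66 (SD, n = 3 each), and the exact two-sided permutation test gave p = 0.1, the smallest that 3 against 3 allows. Controls lay close together, with a median SD over rows of 0.078 log2 units, against 0.062 for hairpin 1 and 0.107 for hairpin 2. Distances of over 1 log2 unit between a library and its 2 group mates averaged were found in 0 rows for each control. Hairpin 2 replicates 1, 2 and 3 had such distances in 14, 38 and 0 rows, so replicate 2 stood somewhat apart from the others. On the first principal component of the 9 TMD8 knockdown libraries, with 37.8% of the variance, replicate 2 lay at -24.6. The other hairpin 2 libraries lay at -3.3 and -9.9, and the controls between -2.7 and 8.3. On the second component, with 32.3%, the controls lay between 11.8 and 15.9. The hairpin 2 libraries lay there between -12.1 and -1.5, and those of hairpin 1 between -9.3 and -4.7.

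Hairpin 2 changed many rows by a little. Of 11301 rows tested, 2711 were called (24%), 1561 higher (13.8%) and 1150 lower (10.2%) than with the non-targeting hairpin. A call is an adjusted p below 0.05 from limma on log2(CPM + 1), two-sided, with the 9 TMD8 knockdown libraries sharing 1 estimate of the spread. The median raised row had a log2 change of 0.28, a ratio of 1.21, and the median lowered row had a log2 change of -0.386, a ratio of 0.765. Of the called rows, 87.9% changed by less than 1.5-fold. At least 1.5-fold, 113 rose and 216 fell, and at least 2-fold, 21 rose and 37 fell, which is 0.513% of the rows tested. edgeR, whose fold changes of low rows are damped less, put 149 rows past 2-fold, 37 higher and 112 lower.

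The balance of directions depended on the scaling of the libraries. With the deposited CPM the raised rows outnumbered the lowered ones. Median-ratio rescaling gave 1203 higher and 1424 lower, quantile normalization 1174 and 1253, edgeR on whole reads 1205 and 1434, and DESeq2 1078 and 1226. The median log2 change over all tested rows was 0.0306 with the deposited CPM and -0.0012 after rescaling. No called row was called in the opposite direction under these 4 settings. The 1965 rows called in the same direction under all 5 were 963 higher and 1002 lower.

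**Figure D1:**
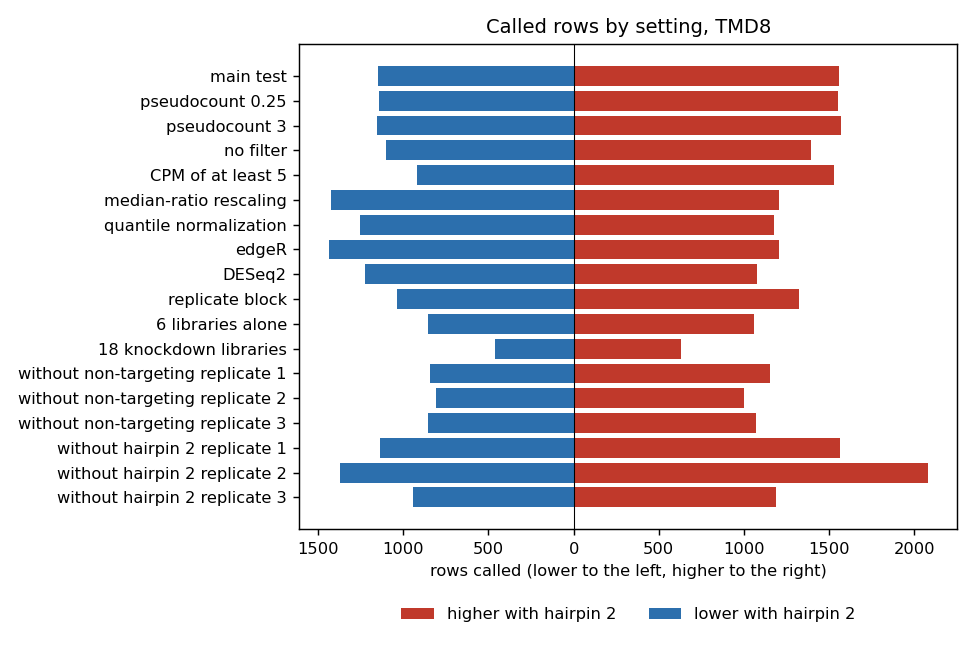
Number of rows called higher (red, to the right) and lower (blue, to the left) with hairpin 2 in TMD8, under the main test and each other setting; the 3 settings that leave out a hairpin 1 library are not drawn. Raised rows outnumber lowered ones with the deposited CPM (1561 and 1150) and lowered ones outnumber raised ones after median-ratio rescaling (1203 and 1424).

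One library changed the number of calls by over 1.5 times. The median change of the raised rows was 0.267, 0.308 and 0.264 log2 units in hairpin 2 replicates 1, 2 and 3, and that of the lowered rows -0.379, -0.389 and -0.359. Since the calls rest on these libraries, the values are a description. Leaving out non-targeting replicate 2 gave 1807 called rows, and leaving out hairpin 2 replicate 2 gave 3452. A fit of the 6 libraries alone gave 1915.

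Raised rows were expressed at higher levels than lowered ones. Their median level was 48.9 CPM over the 6 libraries, against 21.2 CPM for the lowered and 27.4 CPM for all tested rows. Among 1879 rows under 5 CPM, 4.1% were called higher and 13.9% lower. From 5 to 20 CPM the shares were 8.9% and 10.2%, and from 20 to 100 CPM 17.2% and 8.9%. Among the 1823 rows over 100 CPM, 22.6% were called higher and 9.7% lower. Smaller changes could be called in stronger classes. The median standard error was 0.132 log2 units under 5 CPM and 0.052 over 100 CPM. The median size of a called change was 0.514 and 0.221 log2 units. Of the calls, lowered rows made up 77.3% in the weakest class and 29.9% in the strongest.

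**Figure D2:**
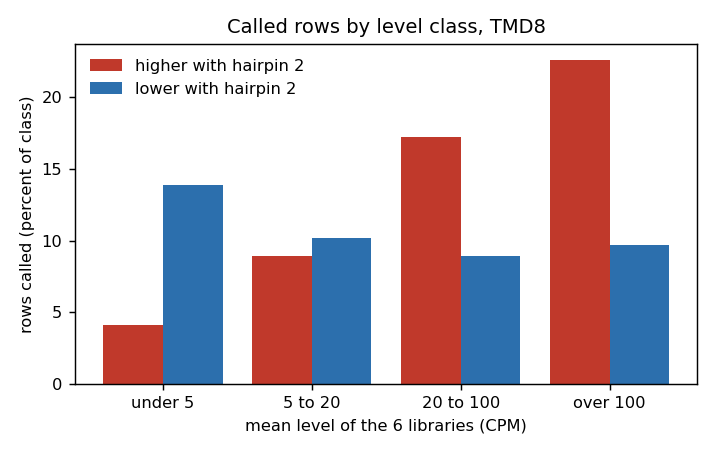
Percent of the rows of each level class (mean CPM of the 6 libraries) that were called higher (red) or lower (blue) with hairpin 2 in TMD8. The raised share climbs from 4.1% under 5 CPM to 22.6% over 100 CPM, whereas the lowered share stays between 8.9% and 13.9%.

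This slope with level was present under median-ratio rescaling, where lowered rows made up 82.2% of the calls under 5 CPM and 44.2% over 100 CPM. After quantile normalization, which gives all libraries 1 distribution of levels, the shares were 54.6% and 51.2%. The median change of all rows ran from -0.072 log2 units under 5 CPM to 0.062 over 100 CPM. With hairpin 1, measured against the same control libraries, it ran from -0.056 to 0.054. The share of reads in the rows also moved with the hairpins, as given above for hairpin 2, and its part in the slope was not tested.

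**Figure D3:**
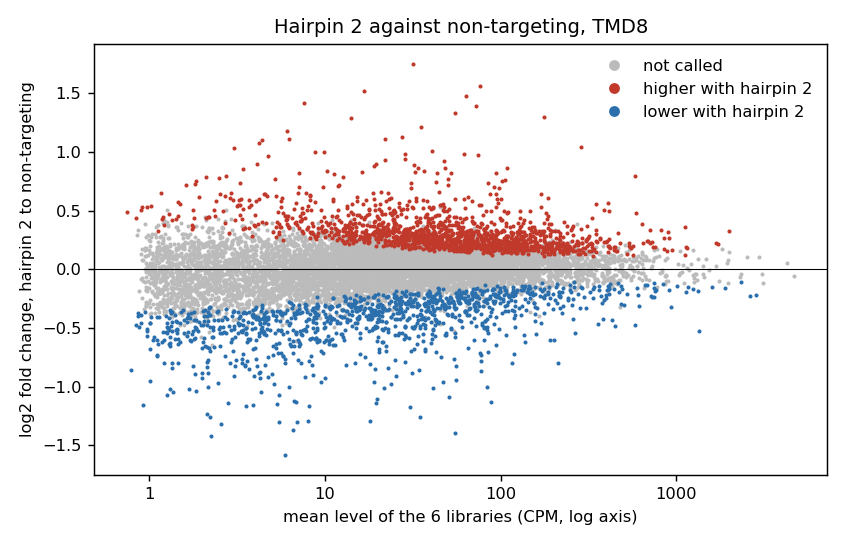
Each point is 1 of the 11301 tested rows: mean level of the 6 libraries in CPM on a log axis, and log2 fold change of hairpin 2 to the non-targeting hairpin. Called rows are red (higher, 1561) or blue (lower, 1150); most lie within 1 log2 unit of 0.

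Hardly any row was switched on or off. A level of at least 1 CPM in all 3 hairpin 2 libraries and under 1 CPM in all 3 controls was found in 18 rows, and the reverse in 40. No row had 10 or more reads in each library of a group and none in the other group. Of the tested rows, 10852 reached 1 CPM in all 6 libraries, and 1541 of these were called higher and 1062 lower. That is 24.0%, the share over all tested rows being 24%. The 449 tested rows under 1 CPM in at least 1 library held 20 higher and 88 lower calls (24.1%). Among them are the 18 and 40 rows above, which passed the filter through 1 group alone, so their direction is built in.

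Row 22163 rose most. It held 16.6, 13.9 and 11.5 CPM in the controls and 47.1, 56.1 and 45.1 CPM with hairpin 2. The log2 fold change was 1.75 (SE 0.137; limma adjusted p = 7.81e-06). Row 19859 behaved alike, at 41.5, 37.8 and 35.3 CPM in the controls and 110, 131 and 104 CPM with hairpin 2, a log2 fold change of 1.56 (SE 0.099; limma adjusted p = 3.67e-06). Of the hairpin 2 libraries, replicate 2 was the highest for both rows.

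Row 15973 fell most among rows of this level. It held 80.5, 77.7 and 82.1 CPM in the controls and 28.8, 30.4 and 30.4 CPM with hairpin 2, a log2 fold change of -1.39 (SE 0.05; limma adjusted p = 3.43e-08). Its 3 libraries within a group were almost level. Row 5675 held 10.3, 9.2 and 11.4 CPM in the controls and 3.29, 3.17 and 4.32 CPM with hairpin 2, a log2 fold change of -1.30 (SE 0.118; limma adjusted p = 2.11e-05). At this lower level the pseudocount matters: the change was -1.47 with a pseudocount of 0.25 CPM and -1.01 with 3 CPM. All 4 calls held in each of 20 other settings.

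**Figure D4:**
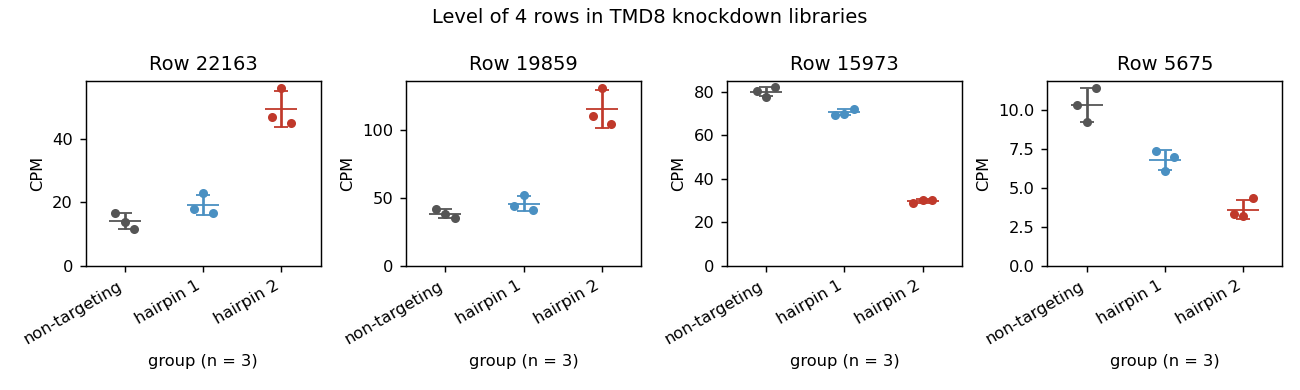
CPM of rows 22163, 19859, 15973 and 5675 in the 9 TMD8 knockdown libraries (points), with the mean and SD of each group of 3 (bars); each vertical axis starts at 0. The rows were chosen for hairpin 2 and control libraries that do not overlap. The hairpin 1 libraries entered the choice only through the shared estimate of the spread. They lie between the hairpin 2 and control means.

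Hairpin 2 was also compared with hairpin 1 directly, with the controls entering through the spread and the filter on low rows. The hairpins differed in 1998 of 11301 rows (17.7%), 1066 higher (9.43%) and 932 lower (8.25%) with hairpin 2 (limma, adjusted p below 0.05). The median difference was 0.307 log2 units in the former and -0.356 in the latter. Against the shared controls, the former rows stood at a median of 0.229 with hairpin 2 and -0.087 with hairpin 1, and the latter at -0.199 and 0.137. These rows were picked for a difference between the hairpins, so medians on opposite sides of the controls are partly built in. The number of rows that differ between the hairpins is less stable than that against the controls. Leaving out a hairpin 1 library gave 1114 (replicate 1), 1074 (replicate 2) or 1001 rows (replicate 3). Leaving out hairpin 2 replicate 1 gave 3026 rows and replicate 3 gave 1230. The 6 hairpin libraries alone gave 1412.

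The rows named above all changed more with hairpin 2. Row 22163 held 17.8, 22.9 and 16.7 CPM with hairpin 1, and hairpin 2 was higher by 1.33 log2 units (SE 0.137; limma adjusted p = 8.42e-05). Levels of row 19859 were 43.8, 51.9 and 41 CPM, which hairpin 2 exceeded by 1.32 (SE 0.099; limma adjusted p = 1.39e-05). In row 15973, at 69.4, 70 and 72.2 CPM, hairpin 2 was lower, at -1.21 log2 units (SE 0.05; limma adjusted p = 8.75e-08). For row 5675, at 7.32, 6.04 and 6.94 CPM, it came to -0.764 (SE 0.118; limma adjusted p = 0.00126). These rows were picked for their change with hairpin 2, so larger changes with it than with hairpin 1 are partly built in. Over the 21 rows raised at least 2-fold, the median change was 1.18 with hairpin 2 and 0.186 with hairpin 1. Over the 37 lowered rows it was -1.14 and -0.739. Of the 1561 rows raised with hairpin 2, hairpin 1 called 492 higher (31.5%) and 36 lower (2.3%). Of the 1150 lowered rows, it called 440 lower (38.3%) and 17 higher (1.5%). Over all 11301 rows the shares with hairpin 1 were 10.7% higher and 7.8% lower (limma, adjusted p below 0.05). Both hairpins were set against the same 3 control libraries, so a shared direction is partly built in.

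In OCI-Ly3, which shares no library with TMD8, the same hairpin called 4985 of 11574 rows (43.1%), 2439 higher (21.1%) and 2546 lower (22%). Of the 1510 rows raised in TMD8 and tested in both lines, 470 (31.1%) were raised in OCI-Ly3 and 316 (20.9%) lowered, against 20.3% and 22.9% of all 10698 rows tested in both. These 470 were 21.7% of the 2167 rows raised in OCI-Ly3 and tested in both lines. Of all 10698 rows, 14.1% were raised in TMD8. Of the 1030 lowered in TMD8, 249 (24.2%) were lowered in OCI-Ly3 and 209 (20.3%) raised, which is near the background. The 249 were 10.2% of the 2449 rows lowered in OCI-Ly3 and tested in both lines, near the 9.6% of all 10698 rows lowered in TMD8. Rows with little or no level in the OCI-Ly3 controls pass the filter there only if hairpin 2 raises them. Among the 1453 raised rows at 1 CPM or more in all 3 OCI-Ly3 controls, 29.2% were raised there and 21.7% lowered, against 19.4% and 23.7% of all 10331 such rows. For the 974 lowered rows at this level the shares were 19.7% and 25.6%.

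For most of the rows raised most in TMD8, OCI-Ly3 offers no baseline. Of the 21 raised at least 2-fold, 19 were tested in OCI-Ly3, and 12 of these were under 1 CPM in all 3 controls of that line. They had to be higher with hairpin 2 to be tested at all, so the count of calls over the 19 is not read. Of the 5 rows at 1 CPM or more in all 3 OCI-Ly3 controls, 3 were raised there and 0 lowered, too few to set against the 19.4% of all such rows. With the at least 2-fold rows taken from edgeR, 13 were at this level, also few, of which 7 (53.8%) were raised in OCI-Ly3 and 1 (7.69%) lowered. Of the 37 lowered at least 2-fold, 22 were at this level, of which 7 (31.8%) fell in OCI-Ly3 and 5 (22.7%) rose. Over all rows at this level 23.7% fell and 19.4% rose, and 22 rows are too few to set apart from that. A control library of OCI-Ly3, replicate 1, stands apart: 999 rows differ by over 1 log2 unit from the average of its group mates. Without it, 4 of the 5 raised rows were raised in OCI-Ly3 and 1 lowered, and of the 22 lowered rows 10 fell and 6 rose. Of the 1453 raised rows, 37.4% were then raised and 27.9% lowered, against 25.4% and 31.8% of all 10331. For the 974 lowered rows the shares were 28.1% and 37%.

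**Figure D5:**
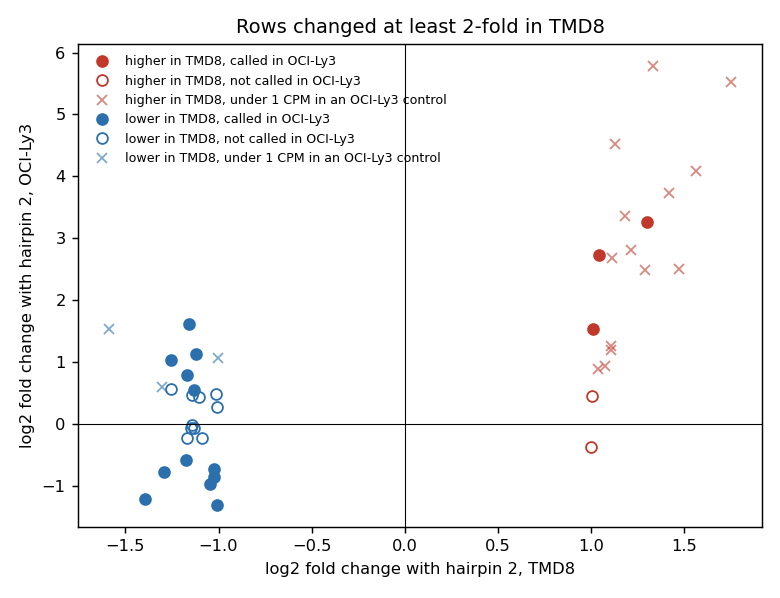
Log2 fold change with hairpin 2 in TMD8 and in OCI-Ly3 for the rows changed at least 2-fold in TMD8 and tested in both lines; filled points were called in OCI-Ly3 and crosses mark rows under 1 CPM in at least 1 OCI-Ly3 control. Of the 19 raised rows (red) 14 are crosses, whose place above 0 the filter favours, and the lowered rows (blue) lie on both sides of 0.

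Row 22163 held 0.0853, 0.247 and 0.177 CPM in the OCI-Ly3 controls and 52.6, 73.3 and 37.5 CPM with hairpin 2. Levels of row 19859 were 0.299, 0.124 and 0.0887 CPM in the controls and 17.2, 24.6 and 15.7 CPM with the hairpin. Both rows lay near the floor in every OCI-Ly3 control and passed the filter of that line through the hairpin 2 libraries alone, so no fold or test is given for them. The values of row 15973 were 66.5, 187 and 182 CPM in the OCI-Ly3 controls and 59.6, 56.1 and 54.3 CPM with hairpin 2, where the log2 fold change was -1.20 (SE 0.331; limma adjusted p = 0.0177). Without control replicate 1, the lowest of these, its change was -1.69 (limma adjusted p = 7.59e-08). Row 5675 was at most 0.0975 CPM in every OCI-Ly3 knockdown library and was not tested there.

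The difference of the hairpin 2 effect between the lines was tested itself, in the 12 libraries of both. It was called in 3798 of 12212 rows (31.1%), 2049 with the more positive change in TMD8 (16.8%) and 1749 with the more positive change in OCI-Ly3 (14.3%). Median-ratio rescaling turned this balance, to 1685 and 1970. Of the 12212 rows, 10698 were tested in both lines, and 3424 of these were called, 1973 and 1451. The other 1514 held 374 calls, and a row near the floor in 1 line may only give back the change in the other. For row 15973 the difference was -0.193 (limma adjusted p = 0.758), which became 0.293 (limma adjusted p = 0.0118) without OCI-Ly3 control replicate 1. Without a reading of MALT1, a weaker knockdown and a weaker response to it cannot be told apart.

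Compound 3 in TMD8, on other libraries, called 0 of 11736 rows at 8 h and 0 at 24 h (0%) in a fit of the TMD8 libraries alone. limma gave 111 and 77 rows at an unadjusted p below 0.05, and edgeR called 0 at each time. DESeq2 called 1 row at the earlier time and 0 at the later one. The median standard error was 0.166 log2 units, against 0.080 in the knockdown. At 8 h, however, same-numbered DMSO and compound 3 libraries deviate together, which this fit leaves out. With the replicate number as a block in the 8 h libraries alone, a fit chosen after seeing the data, the median standard error was 0.089 and limma called 244 rows (2.08%), 7 higher (0.0596%) and 237 lower (2.02%). edgeR with the same block called 233, 31 higher and 202 lower. The same libraries without the block gave 0. At 24 h libraries also deviated together, but across numbers. DMSO replicate 1 went with compound 3 replicate 2 (correlation 0.642) and DMSO replicate 2 with compound 3 replicate 1 (0.675). The libraries numbered 3 went together (0.806). No fit with these pairs was run, so the 24 h result leaves this shared deviation out. In the blocked fit, 2 of the 1549 rows raised by hairpin 2 were called higher and 45 lower (2.91%). Of the 1114 lowered rows, 0 were called higher and 36 lower (3.23%). The 1549 raised rows had a median difference of -0.036 at 8 h and 0.022 at 24 h, against -0.008 and 0.003 for all rows. The 1114 lowered rows had medians of -0.039 and -0.009. Of the 21 rows raised at least 2-fold, 20 were tested, with medians of 0.073 at 8 h and 0.19 at 24 h. In the blocked fit 0 of these 20 were called. Of the 37 rows lowered at least 2-fold, 30 were tested, with medians of -0.02 and -0.099.

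None of the named rows was called with compound 3, also with the block at 8 h. Row 19859 held 49.1, 22.6 and 56.7 CPM in TMD8 with DMSO at 8 h and 53.7, 30 and 65.9 CPM with compound 3. At 24 h it held 9.47, 5.27 and 7.36 CPM with DMSO and 10.8, 8.88 and 9.69 CPM with compound 3. At 8 h each library with compound 3 was above the DMSO library of its number, by 0.245 log2 units on average (SE 0.077 with the block; limma adjusted p = 0.117). At 24 h, where libraries deviated together mostly across numbers and no paired fit was run, the groups overlapped. At 24 h compound 3 minus DMSO was 0.396 log2 units (SE 0.34; limma adjusted p = 1). For row 22163 the DMSO libraries at 24 h read 2.15, 1.42 and 2.58 CPM and the compound libraries 3.68, 1.75 and 2.93 CPM, below every TMD8 knockdown library. Row 15973 held 87.9, 88.7 and 76.1 CPM with DMSO at 24 h and 74.6, 74.7 and 70.1 CPM with compound 3, where compound 3 minus DMSO was -0.199 log2 units (SE 0.234; limma adjusted p = 1). The hairpin 2 libraries, at 28.8 to 30.4 CPM, lay below all of these. Row 5675 ran from 4.38 to 11.8 CPM in the TMD8 compound experiment and reached at most 0.571 CPM in any OCI-Ly3 library of the series.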

How the data were processed

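Stranded mRNA libraries were sequenced, per the labels' protocols, and aligned with STAR to hg19, per the submitters' processing notes. No source used here names the counter or whether it used strand. The deposited values are CPM per RefSeq gene model, made by the authors. Whole reads were recovered from the steps of the CPM (100% of values within 1e-06 of a whole number), with totals of 20.8 to 24.2 M reads in the 9 TMD8 knockdown libraries. Row order was taken to be the same in all files, which share 1 running number. Overlapping or near-identical genes could not be set apart.

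Rows with at least 1 CPM in 3 or more of the 6 hairpin 2 and non-targeting libraries were tested with limma 3.58.1 (R 4.3.3) on log2(CPM + 1), with eBayes and a mean-variance trend, in 1 group-means model of the 9 TMD8 knockdown libraries, and Benjamini-Hochberg adjustment over all rows. Fold changes on this scale understate changes of low rows. OCI-Ly3 was fitted in the same way, the line difference on 12 libraries, and compound 3 on the 12 TMD8 libraries. Because the unit is CPM, edgeR 4.0.16 (quasi-likelihood, TMM) and DESeq2 1.42.0 served as alternatives on the recovered reads. Named rows are the 2 largest rises and the 2 largest falls among called rows whose groups do not overlap and whose higher group has at least 10 CPM. The comparison, lists and tests were chosen with earlier results of these data known. Same-numbered TMD8 hairpin 2 and control libraries did not deviate together (correlations -0.504, 0.142 and 0.309), so the numbers do not pair them. Numbers did pair the TMD8 8 h compound and DMSO libraries (0.925, 0.76 and 0.764). At 24 h the same-numbered correlations were -0.196, -0.169 and 0.806, with replicates 1 and 2 going together crosswise (0.642 and 0.675).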

Additional observations from a re-analysis of the deposited data

Results flagged for a closer look

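The hairpin 2 effect differed between TMD8 and OCI-Ly3 in 3798 of 12212 rows (31.1%) by the test of the difference itself (limma, adjusted p below 0.05). Without OCI-Ly3 control replicate 1 the number was 5347. Of the 3798, 3424 were among the 10698 rows tested in both lines.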

How the results depend on the processing

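The number of rows called with hairpin 2 in TMD8 was within 1.5 times of 2711 in 18 of 20 other settings. It was 1091 with all 18 knockdown libraries sharing the spread, and 1807 to 3452 without any 1 of the 9 libraries. The 1091 hold 1085 of the 2711. Without any 1 library, 1465 rows kept their call in all 9 fits. With the replicate block it was 2359, which changed no call of the named rows. The number of at least 2-fold rows, 58, rose to 104 with a pseudocount of 0.25 CPM, 149 with edgeR and 144 with DESeq2, and fell to 24 with a pseudocount of 3 CPM; these depend on the pseudocount by construction. Hairpin 2 against hairpin 1 gave 647 rows with the 18 libraries and 1001 to 3026 without 1 library. For compound 3 at 8 h DESeq2 called 1 row, limma with the replicate block in the 8 h libraries alone 244 and edgeR with that block 233, and the other settings 0 at both times, among them the block over all 12 libraries. The line difference gave 2820 to 5347 rows and OCI-Ly3 3612 to 6573 without 1 library. The difference in the share of reads in the rows was 1.7 to 2.35 percentage points without 1 library. The cause of the lower counts with 18 libraries was not tested. Depth limits rows near 1 CPM, or about 20.8 to 23.7 reads.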

Other observations

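Rows called with hairpin 2 adjoined each other in the running number about as often as any tested row adjoined one. Of the 902 raised rows whose next row was tested, 14.1% were followed by a raised row, against 14.6% after any tested row. For lowered rows the shares were 10.1% of 616 and 9.7%. What orders the rows is not stated in the sources used here.

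The raised rows took up 13.01% ± 0.15 (SD, n = 3) of all reads in the controls. Their share was 14.3% ± 0.23 in hairpin 1 libraries and 15.7% ± 0.3 in hairpin 2 libraries. The lowered rows held 9.47% ± 0.04, 8.60% ± 0.08 and 7.82% ± 0.05. These rows were chosen on the control and hairpin 2 libraries, so their values there are a description. The hairpin 1 libraries entered the choice through the spread. Their shares are set against the same controls, so a shift from the controls is partly built in.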
